A study of Mus musculus with 12 samples.

Results

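The proteasome subunit genes were taken as the protein-coding genes whose mouse GENCODE name is Psma, Psmb, Psmc, Psmd, Psme, Psmf or Psmg followed by digits, with names ending in -ps left out. The rule found 48 genes, all with measured exonic abundance, among 21443 protein-coding genes. They carried 211 of the 121429 exonic rows and 210 of the 91702 intronic rows, and 1 row is 1 transcript.

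The study labeled RNA in cultured mouse embryonic stem cells of the DTCM23/49 XY line with 4-thiouridine (4sU), a uridine analog that cells build into RNA while it is being made, and compared newly made with bulk RNA. In all groups 4sU was present at 200 µM, for 15, 30 or 60 min. From each plate the labeled fraction (RNA carrying 4sU, biotinylated and caught on streptavidin beads) and total RNA were sequenced, which gave 6 groups (labeled or total RNA at each time) of 2 biological replicates, 12 libraries in all. The replicates came from 1 culture divided and passaged apart. The p-values below therefore measure the spread between libraries within a time, from 2 cultures of 1 line. Unless a replicate block is named, labeled and total RNA of 1 plate were treated as independent. No group without 4sU was analysed here.

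The 26S proteasome degrades proteins tagged with ubiquitin. Its 20S core is a barrel of stacked rings. There alpha subunits form the gate, and the beta subunits encoded by Psmb5, Psmb6 and Psmb7 carry the peptide-cutting sites. The 19S cap has a ring of ATPases (Psmc genes), which unfold the substrate. It also has non-ATPase subunits (most Psmd genes), which bind and remove ubiquitin. Immune signals such as interferon gamma replace the catalytic subunits by inducible ones (Psmb8, Psmb9 and Psmb10), chaperones (Psmg genes and some Psmd genes) assist assembly, and embryonic stem cells are known for high proteasome activity.

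The members were grouped by role into 8 genes of the 20S alpha ring, 7 of the 20S beta ring, 4 inducible or tissue-specific beta subunits, 6 ATPases of the 19S base, 11 other 19S subunits, 7 assembly factors, and 5 activators or inhibitors. The cells' identity was checked on marker genes. All 10 embryonic stem cell markers had a mean abundance of at least 163 in total RNA, whereas of the 15 markers of other lineages only Thy1 reached 20 (38.6 ± 9.90, SD, n = 6). Sox1 was not listed. Cdx2, Elf5, Sox17, Mesp1, T, Col3a1 and Pdgfrb had no value in any total library and were set to 0 there.

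Abundance is given per length of transcript, on the authors' scale, where exons and introns of a library sum to nearly the same total. It compares genes, but between libraries each value is a share, and a larger intronic share leaves less for exons. Introns made up 6.53% to 7.41% of the total libraries and 6.99% to 14.8% of the labeled ones. The values hold no read counts, and the depth of each library is not given in the sources used here. Levels are those of a reference transcript per gene, the one with the longest coding sequence. Transcripts of a gene that share most exons often had near values. Of 3874 transcript pairs sharing at least 90% of their exonic bases, 78.3% lay within 1.25-fold, and so did 4 of 4 such pairs of proteasome genes. Whether shared signal was divided among such transcripts or counted in each cannot be told from this. A reference level may therefore understate the level of its gene.

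The promoters of the catalytic beta subunits and their inducible counterparts are shown first, because these pairs set apart the members by level. Each stretch lies upstream of the annotated gene start (RefSeq, GRCm38.p6), reads 5′ to 3′ on the gene's strand, and has in capitals any match on either strand to TGACNNNGC (the antioxidant response core, to which the proteasome gene activators NRF1 and NRF2 bind), to CCAAT (the CCAAT box) or to the interferon-stimulated response element. Psmb5 is at chr14:54617996-54618245 on the minus strand, Psmb8 at chr17:34197945-34198194 on the plus strand, Psmb6 at chr11:70525107-70525323 on the plus strand and Psmb9 at chr17:34187331-34187580 on the minus strand.
Psmb5: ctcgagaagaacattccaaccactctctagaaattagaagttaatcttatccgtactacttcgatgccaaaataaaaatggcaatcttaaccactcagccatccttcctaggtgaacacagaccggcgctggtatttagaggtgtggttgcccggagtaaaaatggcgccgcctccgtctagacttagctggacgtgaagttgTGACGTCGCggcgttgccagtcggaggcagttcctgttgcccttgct
Psmb8: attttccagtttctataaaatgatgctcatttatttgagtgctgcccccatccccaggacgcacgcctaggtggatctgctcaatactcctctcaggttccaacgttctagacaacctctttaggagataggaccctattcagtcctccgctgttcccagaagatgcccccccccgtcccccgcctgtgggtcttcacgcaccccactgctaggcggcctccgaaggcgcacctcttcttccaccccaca
Psmb6: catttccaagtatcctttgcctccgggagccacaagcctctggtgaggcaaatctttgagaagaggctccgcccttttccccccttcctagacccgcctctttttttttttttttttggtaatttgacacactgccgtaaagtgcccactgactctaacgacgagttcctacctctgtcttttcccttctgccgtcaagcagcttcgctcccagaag
Psmb9: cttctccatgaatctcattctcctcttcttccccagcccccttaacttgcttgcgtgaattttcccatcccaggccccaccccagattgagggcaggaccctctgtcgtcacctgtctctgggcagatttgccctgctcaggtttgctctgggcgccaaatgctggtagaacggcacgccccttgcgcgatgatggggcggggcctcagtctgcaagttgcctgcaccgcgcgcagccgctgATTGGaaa

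Psmb5 had 1 match to TGACNNNGC and Psmb9 1 to CCAAT in reverse, and the stretches of Psmb6 and Psmb8 held none. In windows of 250 bases before to 50 after the start, TGACNNNGC was present for 6 of the 40 members with a promoter in the table (Psmb5, Psmb6, Psmc6, Psmd9, Psmd12 and Psme4), or 15.0%, beside 14% of all 27025 genes. CCAAT was present for 14 members (35.0%, beside 41.1% of genes) and the interferon-stimulated response element for 5 (12.5%, beside 3.99%). Those 5 were Psmb3, Psmd4, Psmd9, Psme1 and Psmg4, and the inducible Psmb8, Psmb9 and Psmb10 were not among them. These are matches of letters, not binding sites, and they were not tested.

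Constitutive subunits were far more abundant than inducible ones in these cells. Psmb5, which cuts after hydrophobic residues, had an abundance of 381 ± 19 in total RNA (SD, n = 6), and its inducible counterpart Psmb8 4.17 ± 2.24. The ratio of the means was 91.3, between 53.1 and 214 in single libraries. Psmb6, which cuts after acidic residues, had 711 ± 151 and Psmb9 10.9 ± 2.25, a ratio of 65.4. Psmb7, which cuts after basic residues, had 1167 ± 137 and Psmb10 31.3 ± 3.89, a ratio of 37.3. The constitutive gene of each pair was higher in 6 of 6 total and 6 of 6 labeled libraries, and the ranges did not overlap. In labeled RNA the ratios were 104, 66.3 and 29.5. The ratios depend on the transcripts read. Summed over transcripts, Psmb5 had 361 to 407 in total libraries and Psmb8 5.63 to 24.4. Psmb6 then had 1082 to 1789 and Psmb9 33.1 to 56.2, and Psmb7 1059 to 1465 and Psmb10 25.9 to 35.8. In bulk RNA, fewer expressing cells and less RNA per cell cannot be told apart.

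Among tissue-specific subunits, Psmb11, the beta subunit of the thymus cortex, was lowest of all members at 2.87 ± 0.514 in total RNA. Psma8, the alpha subunit of testis, had 50.7 ± 17, beside 1231 ± 87.2 for Psma7, whose place it takes. Psmb8 and Psmb11 did not reach the mean of 20 that the test of exonic differences required, and 46 members did.

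Across roles, total RNA levels ran from the inducible or tissue-specific beta subunits, with a median of 7.52 over 4 genes, through the assembly factors (86.7 over 7), the 20S beta ring (416 over 7 genes), 19S ATPases (468 over 6), other 19S subunits (479.6 over 11) and the 20S alpha ring (667 over 8) to the activators and inhibitors (793 over 5). The median over all 8742 protein-coding reference transcripts with a mean of at least 20 was 92.9. On reference transcripts, Psmd12, a scaffold subunit of the 19S lid, was the most abundant member at 1446 ± 94.3 and exceeded the next, Psma7, by more than the spread between libraries. Of 47 neighbouring pairs in the order of levels, 9 differed by more than the larger SD, and the other 38 did not. The order depends on the transcript read, since the reference transcript need not be the main one: other transcripts reached 2279 for Psmd1, 2129 for Psmd12, 1882 for Psma3 and 1774 for Psme4. Summed over transcripts the order also changed. Psma3 then stood at 7877 to 12671 in the total libraries, above Psmd12 at 4154 to 5165.

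Within the 20S rings the constitutive genes apart from Psma8 lay between 360.1 ± 68.1 (Psmb3, a structural beta subunit) and 1231 ± 87.2 (Psma7). Among ATPases, Psmc5 was highest at 762 ± 56.5 and Psmc3 lowest at 181 ± 24.8. Among other 19S subunits, the lowest reference transcript was that of Psmd13, a lid subunit, at 68.6 ± 7.66, and its other protein-coding transcripts had means of 41.9 to 97.4.

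Assembly factors ran from 27.4 ± 7.35 (Psmd9, a chaperone of the ATPase ring) to 225 ± 36.6 (Psmg1, a chaperone of the alpha ring). Of the activators, Psme4, which encodes the ring-shaped nuclear activator PA200, was highest at 900.0 ± 156, followed by Psme1, a subunit of the activator PA28, at 848 ± 136. Psmf1, which encodes the inhibitor PI31, was lowest at 31.2 ± 6.30.

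**Figure D1:**
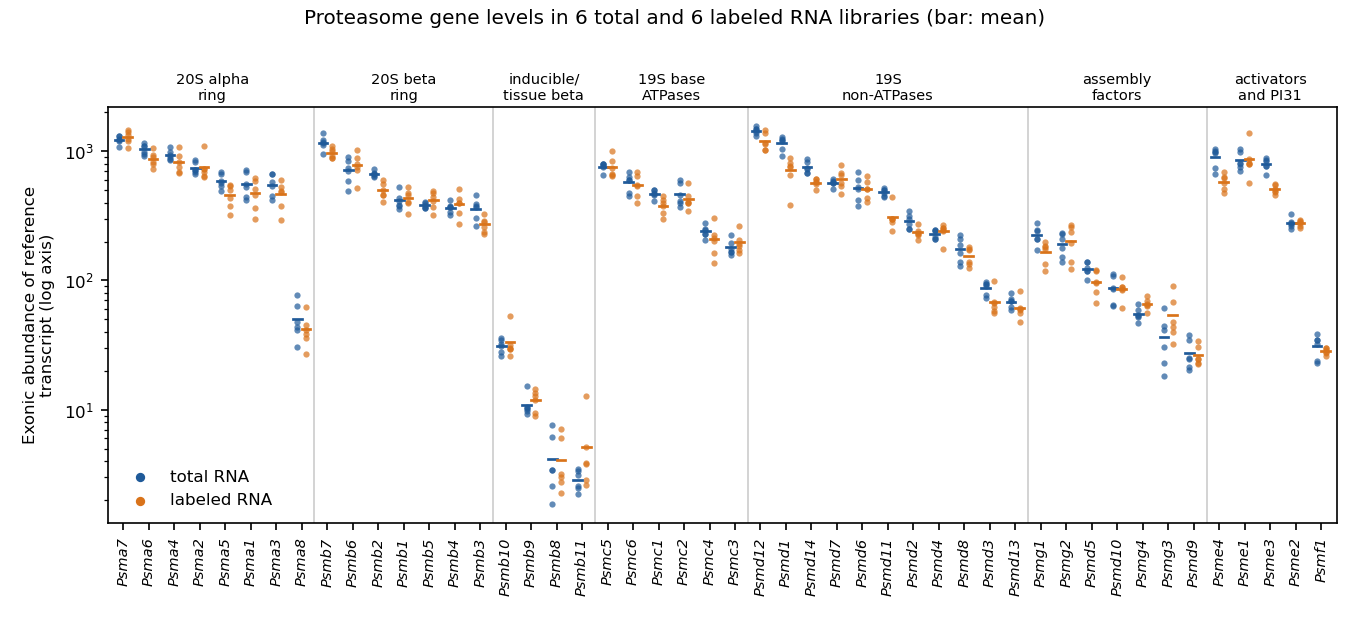
Exonic abundance of the reference transcript (log axis) for the 48 proteasome genes, grouped by role, in the 6 total (blue) and 6 labeled (orange) RNA libraries, where points are libraries and bars are means. Genes of the constitutive rings and of the 19S cap reach up to a mean of 1446 in total RNA for Psmd12, whereas Psmb8, Psmb9 and Psmb11 have means of 4.17, 10.9 and 2.87.

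Labeled and total RNA were compared to ask which genes are over- or under-represented in newly made RNA, as the log2 difference of values plus 1 in a model with time as a term. In exonic abundance Psmd1, Psmd2, Psmd11, Psmd14, Psmb2, Psme3 and Psme4 were lower in labeled RNA and no member was higher. Thus 7 of 46 tested members passed (adjusted p below 0.05, from limma after Benjamini and Hochberg), beside 16.1% of all 17011 genes, of which 9.06% were lower and 7.04% higher. Here and below, all genes tested on summed values are a mixed set. It was drawn from protein-coding genes, non-coding genes and assembled transcripts, each assembled transcript taken as 1 gene (43776 in all with exonic rows). The comparison on reference transcripts holds protein-coding genes only. At an unadjusted p under 0.05 there were 10 of 46 members, all lower, beside 5591 of all 17011 genes. The median difference was -0.13 over members and 0.04 over all genes.

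In the model that blocks on the replicate culture at each time, 4 of the 7 passed (Psmb2, Psmd1, Psmd11 and Psme3), beside 1762 of 17011 genes (921 higher and 841 lower). On reference transcripts alone, a choice made after the data were seen, 7 of 45 members passed, again all lower, but there 25.5% of 8742 genes passed and 20.3% were lower and 5.17% higher, and the medians were -0.18 for members and -0.13 for all. Psmd2 was not called on its reference transcript (-0.29, limma adjusted p = 0.0829), and Psmg1 was called there (-0.45, limma adjusted p = 0.0326) but not on the sum (-0.36, limma adjusted p = 0.0830).

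Psmd1, Psmd11, Psmd14 and Psmd2 encode 19S subunits outside the ATPase ring. Psmd1 (chr1:86064619-86139295), the large scaffold of the 19S base, had reference values of 925, 1209.7 and 1300.2 (lowest, median and highest) in total RNA and of 384, 766 and 888 in labeled RNA. No labeled library reached the lowest total one. The summed difference was -0.73 ± 0.16 (SE, limma adjusted p = 0.0135). Armc9 on the same strand and Htr2b on the opposite strand overlap exons of Psmd1, and their part was not tested.

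Psmd11 (chr11:80428615-80473248), a lid subunit linked to high proteasome activity in pluripotent cells, had 440.4, 487 and 518 in total and 240.4, 298 and 443 in labeled RNA. The ranges met only through the 60 min labeled library of replicate 2, the highest labeled value. The summed difference was -0.56 ± 0.10 (SE, limma adjusted p = 0.00508).

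Psmd14 (chr2:61711694-61800376), the enzyme that removes ubiquitin chains at the lid, had 674, 734 and 870.1 in total and 502, 576 and 615 in labeled RNA, without overlap. The summed difference was -0.39 ± 0.12 (SE, limma adjusted p = 0.0473), and it passed in only 3 of the 12 models that left out 1 library, with adjusted p up to 0.112.

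Psmd2 (chr16:20651122-20663414), the other large base scaffold, had 249, 287 and 342 in total and 206, 232 and 275 in labeled RNA. The labeled 15 min library of replicate 2 lay within the total range. The summed difference was -0.40 ± 0.10 (SE, limma adjusted p = 0.0243), and it passed in 8 of the 12 models.

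The remaining genes belong to the core and to the activators. Psmb2 (chr4:126677637-126709715), a structural beta subunit, had 634, 667 and 730.1 in total and 408, 481 and 594 in labeled RNA, without overlap. Its summed difference was -0.50 ± 0.12 (SE, limma adjusted p = 0.0168). It was the only member of the 20S rings to pass.

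Psme3 (chr11:101316213-101323537), which encodes the nuclear activator PA28 gamma, had 655, 799 and 890.2 in total and 461, 501 and 559 in labeled RNA, without overlap. Its summed difference of -0.72 ± 0.08 (SE) had the smallest adjusted p of the members (limma, 0.000844). Psme4 (chr11:30771775-30881150) had 669, 973 and 1041 in total and 473, 592 and 696 in labeled RNA, where the 60 min library of replicate 1 overlapped the total range. Its summed difference was -0.58 ± 0.14 (SE, limma adjusted p = 0.0166). Psmd1, Psmd11, Psmb2, Psme3 and Psme4 passed in 12 of the 12 models that left out 1 library.

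**Figure D2:**
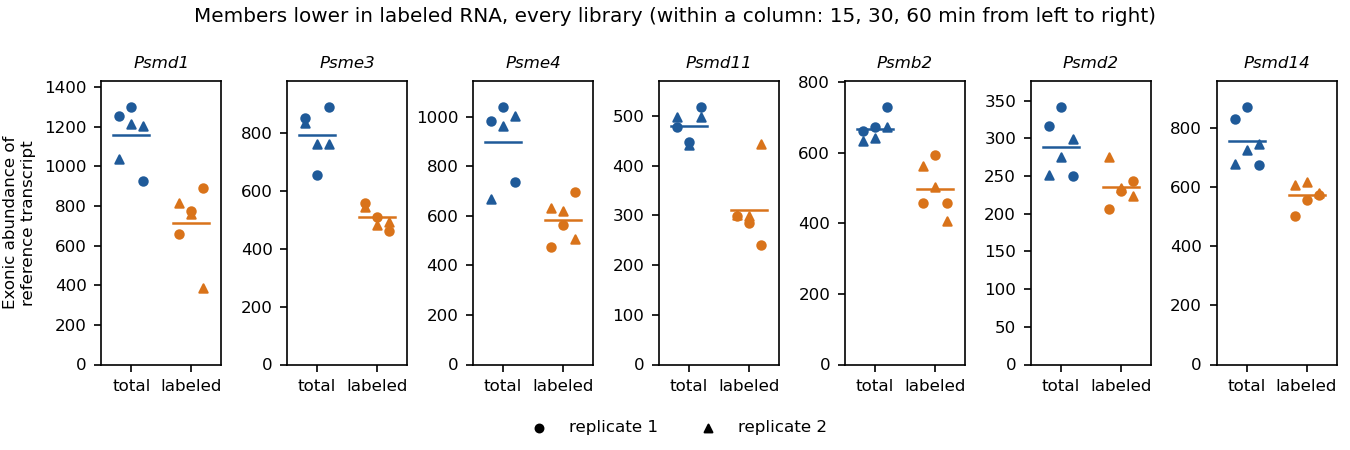
Exonic abundance of the reference transcript of the 7 members lower in labeled RNA, on linear axes from 0, with each library as a point (circle replicate 1, triangle replicate 2) and the mean as a bar. Within each column the times 15, 30 and 60 min stand from left to right. Labeled libraries of Psmd1, Psme3, Psmb2 and Psmd14 all lie below the total libraries, and for Psme4, Psmd11 and Psmd2 1 labeled library lies within the total range.

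The highest differences did not pass. Psmg3, a chaperone of the alpha ring that pairs with Psmg4, had 18.1, 36 and 61.7 in total and 32.0, 45.7 and 90.5 in labeled RNA (difference 0.57 ± 0.33, SE, limma adjusted p = 0.259), and the ranges overlapped. Psmb6 stood at 0.28 ± 0.15 (SE, limma adjusted p = 0.211), and it passed under quantile normalization (0.42, limma adjusted p = 0.0267). Psmc3, an ATPase, stood at 0.23 ± 0.26 (SE, limma adjusted p = 0.569). By role, 4 of 11 non-ATPase 19S genes, 2 of 5 activators and inhibitors, 1 of 7 constitutive beta genes, and none of 6 ATPases, 8 alpha genes, 7 assembly factors and 2 inducible beta genes tested were lower. Whether roles differ was not tested.

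Reference transcripts of the 7 genes were 859 to 6491 bases long (median 2848), and those of the 38 other members with a reference test 554 to 3809 (median 1296). Across the 45 members, length and the labeled minus total difference had a Spearman rho of -0.44, and across all 8742 genes of -0.38. Across members GC content had a rho of 0.39 with the difference, and across all genes of 0.07. Each point is 1 transcript in the same 12 libraries, and the part of length in the 7 differences was not tested.

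Libraries also moved many members together. The labeled 15 min library of replicate 1 was the lowest of the 6 labeled libraries in 23 of 45 members, with a median log2 deviation from the labeled mean of -0.23, and the labeled 15 min library of replicate 2 the highest in 15, with a median of 0.17. Total libraries deviated by medians of -0.08 to 0.10. Summed over the 17 constitutive 19S genes, abundance was 8468 ± 484 in total and 7197 ± 728 in labeled RNA (SD, n = 6), and over the 15 ring genes, Psma8 included, it was 9772 ± 739.8 and 8939 ± 956.

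Intronic abundance, a measure of RNA not yet spliced, was higher in labeled RNA for many members. Of 45 members tested on the sum of their intronic values, 20 were higher and none lower, beside 30.7% of all 15162 genes higher and 0.204% lower (30.9% called in all, limma with Benjamini-Hochberg adjustment). The median difference was 0.76 over members and 0.65 over all genes. When each library was rescaled to 1 intronic total, the median over all genes moved from 0.65 to 0.14 and that over members to 0.24. Then 7 members were higher (Psma4, Psma7, Psmb5, Psmc1, Psmc3, Psmd9 and Psmg3) and 2 lower (Psma6 at -0.63, limma adjusted p = 0.00661, and Psmb7 at -0.58, limma adjusted p = 0.0340), of 2754 genes called among 15005.

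Psmc3 had the largest intronic difference. Its summed intronic values were 45.4, 52.8 and 83.1 (lowest, median and highest) in total RNA and 123, 184 and 246 in labeled RNA, and every labeled library lay above all total ones. The difference was 1.68 ± 0.26 (SE, limma adjusted p = 0.00137). Slc39a13 overlaps its exons on the opposite strand, and no source used here says that counting was by strand.

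Psmb4, a structural beta subunit, had intronic values of 29.1, 86.4 and 135 in total and 148, 273 and 341 in labeled RNA, without overlap (difference 1.67 ± 0.32, SE, limma adjusted p = 0.00277). Psma7 had 43.8, 57.6 and 81.0 in total and 89.7, 174 and 196 in labeled RNA, again without overlap (1.42 ± 0.27, SE, limma adjusted p = 0.00280). Psmb5 had 7.69, 7.89 and 11.5 in total and 12.2, 25.6 and 36.6 in labeled RNA, where no labeled library fell into the total range (1.32 ± 0.30, SE, limma adjusted p = 0.00586). In these genes introns and exons went apart, since the exonic differences were 0.12, 0.11 and 0.13 and did not pass.

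Of the 7 genes lower in exonic labeled RNA, Psmd2 alone was higher in introns (1.18 ± 0.26, SE, limma adjusted p = 0.00531), with 25.5, 33.0 and 53.4 in total and 55.1, 82.5 and 95.7 in labeled RNA. The intronic differences of the other 6 ran from -0.15 ± 0.45 (Psmd14) to 0.77 ± 0.31 (Psme3, limma adjusted p = 0.0733).

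**Figure D3:**
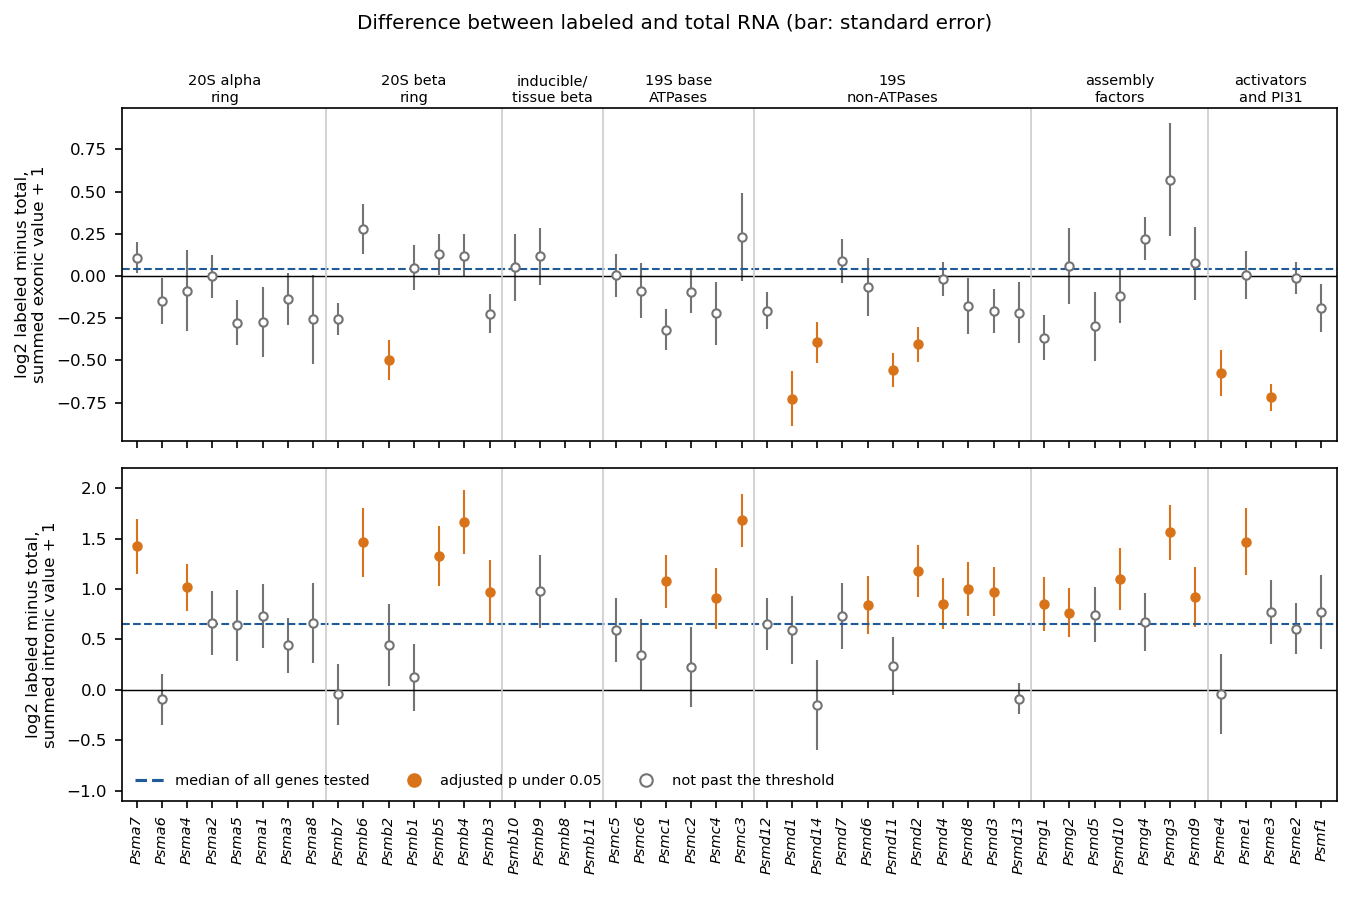
Log2 labeled minus total difference of the summed exonic (top) and intronic (bottom) abundance plus 1 for each proteasome gene, grouped by role, with standard errors as bars, filled orange points past an adjusted p of 0.05 (limma) and the median of all genes as a dashed line. Exonic differences past the threshold are all negative and intronic ones all positive, and the dashed lines stand at 0.04 and 0.65.

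The ratio of intronic to exonic abundance was compared in the same way. It was higher in labeled RNA for 23 of 45 members and lower for none, beside 26.4% of 10412 genes called (26.2% higher, 0.192% lower), with medians of 0.92 over members and 0.69 over all genes. Psmd2 (1.58 ± 0.29, SE, limma adjusted p = 0.00404), Psmb4 (1.55 ± 0.34, SE, limma adjusted p = 0.00798) and Psme3 (1.49 ± 0.33, SE, limma adjusted p = 0.00849) had the largest differences. Summed over transcripts, with 1 added to both values, the ratio had a median over 47 members of 5.50% in total and 10.6% in labeled RNA. For Psmb8, whose intronic sum was 0 in every total library, the 9.17% in total RNA comes from the added 1.

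These counts depended on replicate 1. With replicate 1 alone, 25 of 45 members passed in introns, beside 7331 of 15162 genes, and 29 of 45 in the ratio, beside 4793 of 10412. With replicate 2 alone, 6 members passed in introns, beside 1887 genes, and 1 in the ratio, beside 477. On reference transcripts of 46 members (Psmd13 left out, for the reason given next, and Psmb11, which has no intron row), introns made up 11.6%, 6.37% and 8.41% of exonic plus intronic abundance in the labeled libraries of replicate 1 at 15, 30 and 60 min, and 4.26%, 7.62% and 4.92% in those of replicate 2. Total libraries had 2.95% to 4.26%, so that the 15 min labeled library of replicate 2 matched the highest total one. In 8227 other protein-coding genes the same libraries had 17%, 9.67% and 15.3%, then 6.61%, 11.6% and 6.74%, and total libraries 5.97% to 7.03%. Members had the smaller share in 12 of 12 libraries, but the other genes were not screened for introns like that of Psmd13. The reference intronic mean of Psmd13 in total RNA was 739, beside sums of 639 to 918 over the 46 members. With Psmd13 counted, members would not have the smaller share in every library. Without the labeled libraries of replicate 2 at 15 and 60 min, left out after the data were seen, 40 of 45 members were higher in introns, beside 13528 of 15162 genes called, and 42 of 45 in the ratio, beside 8469 of 10412. The exonic count was then 7 of 46, all lower, beside 5326 of 17011 genes (3104 higher and 2222 lower).

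**Figure D4:**
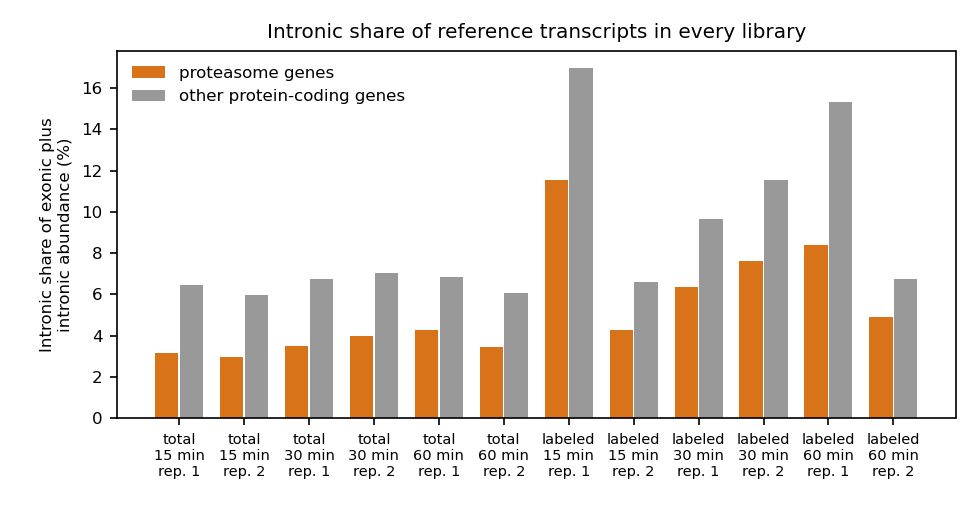
Intronic share of exonic plus intronic abundance of reference transcripts (percent, axis from 0) in every library, for 46 proteasome genes (orange) and 8227 other protein-coding genes (grey). With Psmd13 left out, and no gene left out of the others in this way, proteasome genes have the lower share in every library. The labeled libraries of replicate 2 at 15 and 60 min, at 4.26% and 4.92%, stand near the total libraries.

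The highest intronic to exonic ratios in total RNA belonged to Psmd13 (628% ± 160, SD, n = 6), Psmg4 (58.0% ± 6.81) and Psmd9 (34% ± 8.18). Psmd13 (chr7:140882394-140898642) holds in an intron the pseudogene Gm15542, a single exon of 1194 bases, on the same strand. Gm15542 had an abundance of 6971 ± 1049 in total RNA and 6501 ± 1493 in labeled RNA. The 7 Psmd13 transcripts with an intron spanning Gm15542 had intronic means of 444 to 1281 in total RNA, and the 6 without one 9.27 to 29.3. Summed Psmd13 intronic values (3605 to 6334 over 12 libraries) had a difference of -0.09 ± 0.15 (SE, limma adjusted p = 0.657). The part of Gm15542 in these values was not tested.

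At the level of transcripts, 38 of 201 tested member transcripts were lower in labeled RNA and 1 higher, beside 17.3% of 45537 transcripts called (12% lower, 5.28% higher; limma with Benjamini-Hochberg adjustment). The replicate block left 22, none of them higher, beside 4470 transcripts called. The 39 transcripts called without the block belonged to 10 of 46 genes, since transcripts of a gene share exons: 12 of 15 Psmd11 transcripts, 6 of 7 of Psmd1, 5 of 5 of Psme3, 4 of 8 of Psmd14, 3 of 3 of Psmb2, 3 of 6 of Psmd2 and 3 of 7 of Psme4 were lower, with 1 each of Psmc4 and Psmf1. The median difference was -0.15 over members' transcripts and -0.09 over all.

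By annotated type, 14 of 82 protein-coding transcripts were lower, beside 19.1% of such transcripts called, and 8 of 20 of the nonsense-mediated decay type, beside 16.2%. The shares called for each type count lower and higher transcripts together. Of transcripts without a coding sequence, 13 of 42 processed transcripts were lower, beside 14.8% called. For retained introns 3 of 57 were lower and 1 higher, beside 14% called. Of the 8 nonsense-mediated decay transcripts, all that passed were lower, and their gene was Psmd11 in 6 of them.

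The lowest fitted difference among transcripts that passed was in ENSMUST00000173186, a nonsense-mediated decay transcript of Psmd11 (-1.08 ± 0.18, SE, limma adjusted p = 0.00374), with 173 ± 47.7 in total and 80.8 ± 17.1 in labeled RNA (SD, n = 6). The lowest of all, ENSMUST00000153385 of Psmd13, only 123 bases long, did not pass (-1.71 ± 0.93, SE, limma adjusted p = 0.222). That difference leans on 1 missing value set to 0, in the labeled 60 min library of replicate 1. The other labeled libraries had 62.6 to 109 and the total libraries 103 to 154. The 1 higher transcript was ENSMUST00000147471, a retained intron transcript of Psmd6, a lid subunit, at 92.6 ± 12.3 in total and 145 ± 36.5 in labeled RNA (0.61 ± 0.16, SE, limma adjusted p = 0.0228). The highest of all, ENSMUST00000148535 of Psmb6, did not pass (0.68 ± 0.26, SE, limma adjusted p = 0.0965).

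Labeling time made no detectable difference in the exonic abundance of members. Between 60 and 15 min of labeling no gene passed (limma, adjusted), and at an unadjusted p under 0.05 there were 166 of 17011 genes and 0 of 46 members. Without the labeled 60 min library of replicate 1 these were 2961 genes and 9 members, and without the labeled 15 min library of replicate 1 1279 and 2, with 5 and 0 genes and no member past the adjusted threshold. The members' differences ran from -0.37 (Psmb2) to 0.42 (Psmd3, a lid subunit). For the change over time in labeled against total RNA, again no gene passed, with 169 genes and 0 members at an unadjusted p under 0.05 (1839 and 6 without the labeled 60 min library of replicate 1, 940 and 1 without the labeled 15 min one), and members ran from -0.43 (Psmb2) to 0.61 (Psmd3). These contrasts rest on 2 libraries a group.

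Relative rates were formed as simple ratios on reference transcripts, which is not the procedure of the study (it inferred rates with the INSPEcT package): synthesis as labeled exonic abundance per hour, processing as synthesis over total intronic abundance, and degradation as synthesis over total exonic minus intronic abundance, each as the mean of the 3 times. Because all libraries sum to 1 total whatever the labeling time, a gene equally abundant in labeled and total RNA gets a degradation rate near 2.33 per hour by construction, and rates serve only to order genes. Members' median synthesis was 965 units per hour (n = 45), beside 204 over 8734 protein-coding genes, and 36 of 45 lay above the latter. Median processing was 50.8 per hour, beside 18.2 over 7792 genes, with 38 of 45 above. Synthesis and processing restate the exonic and intronic values of these libraries and are no separate evidence. Median degradation was 2.27 per hour (n = 44), beside 2.48 over 7619 genes, with 13 of 44 above.

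Psmd1, Psme3, Psme4 and Psmd11 had the lowest degradation rates of the members, at 1.48, 1.56, 1.58 and 1.58 per hour, at percentiles 2.66, 4.52, 5.07 and 5.13 of all genes. They repeat the labeled to total ratio given above and are no separate evidence. At the other end, Psmg4 stood at 5.67, Psmg3 at 4.47 and Psmf1 at 4.01 per hour, and their intronic abundance is a large part of the exonic one for Psmg4 (28.7 of 55.1 in total RNA) and Psmf1 (14.4 of 31.2). The highest processing rate was that of Psme1 (452 per hour), with total intronic abundance of 4.62 beside 848 exonic. The lowest was 0.190 per hour for Psmd13, whose introns span Gm15542.

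Other genes of the ubiquitin and proteasome pathway were read from a list of 24, of which 23 were tested. Of these, 9 were lower in exonic labeled RNA and none higher (median -0.30), beside 16.1% of genes called, 9.06% lower and 7.04% higher. They were Vcp, the segregase that pulls ubiquitylated proteins apart (-0.38 ± 0.09, SE, limma adjusted p = 0.0166), its cofactor Nploc4 (-0.45), the ubiquitin receptors Rad23b (-0.67) and Ubqln1 (-0.58), the deubiquitylases Usp14 (-0.50) and Uchl5 (-0.32), the ligase Ube3c (-0.79), the proteasome scaffold AI314180 (-0.56), and Akirin2, which helps import proteasomes into the nucleus (-0.58). Pomp, the maturation protein of the 20S core, had 583 ± 75.7 in total and 784 ± 164 in labeled RNA for its reference transcript. Its difference did not pass on the sum (0.41 ± 0.14, SE, limma adjusted p = 0.0597) and passed on the reference transcript (limma adjusted p = 0.0379). Nfe2l1, which encodes the activator NRF1, stood at -0.25 ± 0.12 (SE, limma adjusted p = 0.170).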

How the data were processed

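Labeled and total RNA of 12 libraries were measured. Per the submitters' processing notes, reads were handled with STAR 2.5.0 and RSEM on mm10; per the study's methods, reads left after removal of ribosomal RNA were mapped to exonic and intronic sequences. The deposited signal is a length-normalized abundance per transcript, separate for exons and introns, which the authors scaled to a sum of 1.999e+07 in each library, with no value below 1.01; missing values were set to 0. Depth per library is not given in the sources used here.

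Transcripts were assigned to genes by GENCODE M1 identifiers, which hold 83847 of the 111672 Ensembl exonic rows. The 27825 other Ensembl rows (19.9% to 22.3% of exonic signal) entered only the transcript comparison. Assembled transcripts without an Ensembl identifier were kept as 1 gene each. Values were summed per gene, kept at a mean of at least 20 (exonic) or 5 (intronic), and tested as log2(value + 1) with limma 3.58.1 (R 4.3.3), mean-variance trend, time as a term and Benjamini-Hochberg adjustment over all features. Differences on this scale understate those of low values. On simulated data (17011 genes, exonic comparison), 50 of 100 genes changed by 1 on the log2 scale and 11 of 100 changed by 0.5 were recovered, with 4 false calls.

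The labels give replicate numbers to separately passaged cultures, so both models, with and without a replicate block, were run; within a time, the deviations of labeled and total libraries that carry 1 number had correlations of -0.01, 0.05 and -0.18 at 15, 30 and 60 min. Genes were named by role extremes, largest differences, catalytic pairs and calls. The members and lists were chosen with earlier results of these data known. Of the 48 members, 40 matched the RefSeq promoter table (GRCm38.p6), and 11 have exons overlapping another gene. Coordinates are from RefSeq GRCm38.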

Additional observations from a re-analysis of the deposited data

Results flagged for a closer look

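In each member the 6 total and the 6 labeled libraries were searched for a single library far from the rest (Dixon's criterion at 95%, exonic abundance of the reference transcript). It marked 9 of 96 groups, where chance marks about 1 in 20 (4.80 of 96). The labeled 60 min library of replicate 2 was the highest for Psma2 (1094, others 629 to 734), Psmb10 (52.7, others 26.1 to 31.7), Psmd3 (99.8, others 55.8 to 67.7) and Psmd11 (443, others 240.4 to 301). The labeled 15 min library of replicate 1 was the highest for Psmb11 (12.7, others 2.60 to 5.11) and the lowest for Psmd4 (175, others 241 to 270.2). The total 30 min library of replicate 2 was the lowest for Psmc5 (652, others 755 to 800.3) and Psmd7 (506, others 570.1 to 609). The total 15 min library of replicate 1 was the highest for Psmb9 (15.4, others 9.22 to 10.5).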

How the results depend on the processing

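With a replicate block, 1762 of 17011 genes and 4 members passed in exonic abundance (2738 and 7 without it), and 4470 transcripts and 22 member transcripts (7888 and 39 without it); exonic lower calls went from 1541 to 841 genes (higher ones from 1197 to 921) and from 5485 to 2786 transcripts. In introns, the ratio and the time contrasts it moved no count of all calls or of members called by over 1.5 times. Crossing the numbers at 60 min, where deviations correlated below -0.1, gave 3347 genes and 8 members. Rescaling to 1 exonic total turned the split of exonic calls from 1197 higher and 1541 lower to 1371 and 1180, with 6 members lower. Rescaling to 1 intronic total left 2754 genes and 9 members (7 higher, 2 lower) from 4679 and 20, and the split moved from 4648 higher and 31 lower to 2384 and 370. Without a filter 4 genes passed between 60 and 15 min and 8 in its interaction with RNA fraction, none of them members. Without the labeled libraries of replicate 2 at 15 and 60 min, 5326 genes passed in exons, 13528 genes and 40 members in introns, 8469 and 42 in the ratio, and 12699 transcripts. This, the crossing of numbers at 60 min and the reference transcripts were chosen after the data were seen. The cause of these shifts was not tested.

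Leaving out 1 library gave 1549 to 3847 genes and 5 to 9 members in exons, 2761 to 8288 and 13 to 36 in introns (36 without the labeled 60 min library of replicate 2), 1214 to 6304 and 10 to 33 in the ratio (10 without the total 15 min library of replicate 1), and 4753 to 10439 transcripts and 26 to 49 of members. It gave 0 to 5 genes in each time contrast. Leaving out 1 replicate gave 0 to 5 genes and 0 members in exons, 0 to 7 transcripts and 0 of members, 1887 to 7331 genes and 6 to 25 members in introns, and 477 to 4793 and 1 to 29 in the ratio. In the time contrasts leaving out 1 replicate could not be fitted, since no residual degrees of freedom remain. Over single members' differences, no call changed sign under any alternative; 2533 kept their side of the threshold, 250 lost it and 116 gained it. Depth per library, and so the counting error of low values such as those of Psmb8, Psmb9 and Psmb11, is not given.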
